A study of Homo sapiens with 12 samples.

Results

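The human HOX genes lie in 4 clusters, HOXA on chromosome 7, HOXB on chromosome 17, HOXC on chromosome 12 and HOXD on chromosome 2. Members were taken by symbol, as every gene of the deposited table whose name begins with HOXA, HOXB, HOXC or HOXD followed by a digit and holds no hyphen. This gave 34 of the 17589 genes in the table, 11 in HOXA, 9 in HOXB, 8 in HOXC and 6 in HOXD. The reference annotation lists 39 such genes, and HOXB1, HOXC12, HOXD1, HOXD3 and HOXD11 were not analysed here. RNA was sequenced from cells labelled as YT, an established human line of NK-like lymphoid cells without CD16a, after transduction with a lentiviral vector and without stimulation. The study asked how receptors built on high-affinity, non-cleavable CD16 (hnCD16) change the transcriptome. CTRL cells carried eGFP alone, hnCD16 cells carried hnCD16, FR1 cells carried hnCD16-2B4-DAP10-CD3ζ and FR2 cells carried hnCD16-DAP10-CD3ζ. Each of the 4 groups had 3 libraries, 12 in all, with 17714566 to 18729019 counts per library. Per the study's methods, all groups were YT cells transduced with lentiviral particles. The receptor constructs were driven by the constitutive EF1A promoter, and eGFP-positive cells were sorted and expanded before use. The labels do not say whether replicates came from separate cultures or sorts, so p-values measure only the spread between these samples, which may be technical.

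HOX genes encode homeodomain transcription factors that give cells along the body axis their positional identity. Within a cluster the genes are numbered by paralogous group from 1 to 13, they are transcribed in the same direction, and their order on the chromosome follows the order in which they are used along the axis. In blood, HOXA and HOXB genes are active in stem and progenitor cells and are generally turned down as lineages mature, while trithorax proteins keep the clusters open and Polycomb complexes keep them silent.

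Before the HOX values, the libraries themselves have to be described, since they fell into a pair of blocks. The Pearson correlation of log2(TPM + 1) over genes was 0.9947 to 0.9963 between CTRL and hnCD16 libraries and 0.9944 to 0.9955 between FR1 and FR2 libraries, but 0.8636 to 0.871 across these pairs of groups. Here TPM is RSEM's transcript level, which is corrected for gene length and library size. FCGR3A, the gene of CD16a, had 0 counts in each CTRL library and 453 to 480 counts with hnCD16, 559 to 567 with FR1 and 1012 to 1132 with FR2. Of 16 NK cell markers, 5 were at 1 CPM (counts scaled to library size) or more in all CTRL and hnCD16 libraries and 12 in all FR1 and FR2 libraries. Their summed level was 44.5 to 49.3 CPM in CTRL and 47.0 to 49.8 CPM with hnCD16, against 4923 to 5175 CPM with FR1 and 4836 to 4936 CPM with FR2. TBX21, a transcription factor of NK and T effector cells, had 0 to 3 counts per library in CTRL and 0 to 4 in hnCD16. NCAM1 had 0 to 4 in CTRL and 0 to 2 in hnCD16, and NCR1 had 0 to 5 and 0 to 1. KLRF1 was at 3 counts or fewer in every library of all 4 groups, and TYROBP in those of FR1 and FR2. Of 9 T cell markers, 7 were at 1 CPM or more in all CTRL and hnCD16 libraries, among them CD3D, CD4 and LCK, which were at 3 counts or fewer in every FR1 and FR2 library. The T cell sum ran from 749 to 874 CPM in CTRL and hnCD16, from 129 to 133 in FR1 and from 157 to 170 in FR2. Of 5 B cell markers in the table, 2 were at 1 CPM or more in every CTRL and hnCD16 library and 1, PAX5, in every FR1 and FR2 library, with sums of 9.19 to 14.7 CPM and 38.3 to 47.4 CPM. Of 6 myeloid markers, 1 was on in CTRL and hnCD16 and 3 in FR1 and FR2, CD14 and MPO were at 3 counts or fewer in all 4 groups, and the sums were 2.99 to 4.13 CPM and 5.90 to 10.6 CPM. Between FR1 and hnCD16, 11 of 14 NK markers tested were called higher and 1 lower, NCR3 (log2 fold change -2.75). Of 9 T cell markers, 8 were called lower and 1 higher. Over all genes tested, 18.7% were called higher and 19.6% lower. The called NK markers with the largest log2 fold changes of FR1 over hnCD16 were GZMB (11.91), PRF1 (9.98), KLRC1 (9.85) and TBX21 (9.70). Those among T cell genes were CD3D (-12.98), LCK (-10.57), CD4 (-7.61) and CD3G (-6.57). Those among B cell genes were PAX5 (8.99), CD79B (-6.70) and CD79A (-4.55), and among myeloid genes ITGAM (2.98) and CSF1R (1.59). For 6 of the 7 Y chromosome genes in the table, every FR1 and FR2 library was at least 4-fold above every CTRL and hnCD16 library. In the libraries labelled CTRL and hnCD16, most NK markers were thus low and most T cell markers were on, and every HOX difference between the blocks goes with these differences. Their part in the HOX values was not tested, and whether all 12 libraries come from the same line was not tested. A difference of cells between the blocks and the signalling domains of FR1 and FR2 cannot be told apart in this design, so each fold between the blocks compares libraries as labelled.

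Promoters of 5 members are given because their genes span the range of levels. HOXA9, HOXA11 and HOXA13 lie toward the posterior end of the HOXA cluster and stood high, intermediate and near 0 in FR1 and FR2, while HOXD4 and HOXD13 were near 0 in all 12 libraries. The sequences are from RefSeq on GRCh38.p14, 250 bases before to 50 after a transcript start, on the gene's strand, and capitals mark CG pairs.
HOXA9, chr7:27165488-27165787, minus strand: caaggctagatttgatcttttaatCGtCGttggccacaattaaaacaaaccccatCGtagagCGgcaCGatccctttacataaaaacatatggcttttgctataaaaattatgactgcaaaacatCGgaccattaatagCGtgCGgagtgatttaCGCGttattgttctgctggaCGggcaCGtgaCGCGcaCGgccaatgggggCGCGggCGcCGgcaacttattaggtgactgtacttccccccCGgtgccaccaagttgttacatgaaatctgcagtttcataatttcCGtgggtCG
HOXA11, chr7:27185183-27185482, minus strand: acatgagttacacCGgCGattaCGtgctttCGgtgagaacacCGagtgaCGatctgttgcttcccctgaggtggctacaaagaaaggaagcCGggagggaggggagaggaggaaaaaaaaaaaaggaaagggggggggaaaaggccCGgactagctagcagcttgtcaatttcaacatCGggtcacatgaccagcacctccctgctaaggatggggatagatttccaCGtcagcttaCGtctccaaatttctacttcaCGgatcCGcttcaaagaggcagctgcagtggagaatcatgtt
HOXA13, chr7:27200042-27200341, minus strand: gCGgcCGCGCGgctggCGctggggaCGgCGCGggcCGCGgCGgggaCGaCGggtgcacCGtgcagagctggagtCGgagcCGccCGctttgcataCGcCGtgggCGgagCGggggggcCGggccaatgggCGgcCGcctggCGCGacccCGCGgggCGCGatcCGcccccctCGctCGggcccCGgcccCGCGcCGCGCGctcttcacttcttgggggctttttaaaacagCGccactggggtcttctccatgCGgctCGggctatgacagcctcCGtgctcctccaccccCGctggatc
HOXD4, chr2:176151300-176151599, plus strand: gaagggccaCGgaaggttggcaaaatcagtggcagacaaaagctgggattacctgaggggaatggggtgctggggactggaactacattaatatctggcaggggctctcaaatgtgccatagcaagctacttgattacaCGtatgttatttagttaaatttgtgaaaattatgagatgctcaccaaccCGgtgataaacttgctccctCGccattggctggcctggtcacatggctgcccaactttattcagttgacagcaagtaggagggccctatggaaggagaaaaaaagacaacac
HOXD13, chr2:176092471-176092770, plus strand: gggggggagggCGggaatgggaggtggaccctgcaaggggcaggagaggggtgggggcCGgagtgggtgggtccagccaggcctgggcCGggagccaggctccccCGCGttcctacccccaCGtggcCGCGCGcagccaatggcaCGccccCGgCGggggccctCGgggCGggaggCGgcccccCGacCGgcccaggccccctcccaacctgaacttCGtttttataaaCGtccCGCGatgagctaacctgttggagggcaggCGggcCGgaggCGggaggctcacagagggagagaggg

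HOXA13, which was close to silent, held 44 CG pairs, the most among the HOX promoters, and HOXA9 held 22, HOXA11 13, HOXD13 24 and HOXD4 4. The promoter table had 23 entries for 16 of the members, with a median of 21 CG pairs and a range of 0 to 44. Over all 35116 promoters the median was 14. The CCAAT box, CCAAT, was found on either strand in 15 of the 23 HOX entries and in 34.6% of all promoters. The TATA box, TATAAA, was in 5 of 23 and in 11.5% of all. The binding letters of MEIS proteins, TGACAG, were in 4 of 23 and in 15.8% of all, and those of a HOX protein with PBX, TGATNNAT, were in 1 of 23 and in 7.4% of all. HOXC4 and HOXC5 share 1 entry, and HOXA3 has 7, so these entries are not independent. A match is only a run of letters and shows no binding.

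HOX expression differed between the blocks in how many genes were on. In CTRL and hnCD16, 4 of the 34 genes, HOXB2, HOXB3, HOXB4 and HOXB7, were at 1 TPM or more in every library, and 28 were at 3 counts or fewer in every library of the group. In FR1 and FR2, 20 genes were at 1 TPM or more in every library, 9 of HOXA, 6 of HOXB and 5 of HOXC, and 11 were at 3 counts or fewer. The summed HOX level was 29.9 ± 2.99 TPM in CTRL and 26.3 ± 0.663 TPM in hnCD16, against 205 ± 3.80 TPM in FR1 and 201 ± 6.75 TPM in FR2 (SD, n = 3 each). As these are bulk samples, fewer cells with a transcript and less of it per cell cannot be told apart.

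**Figure D1:**
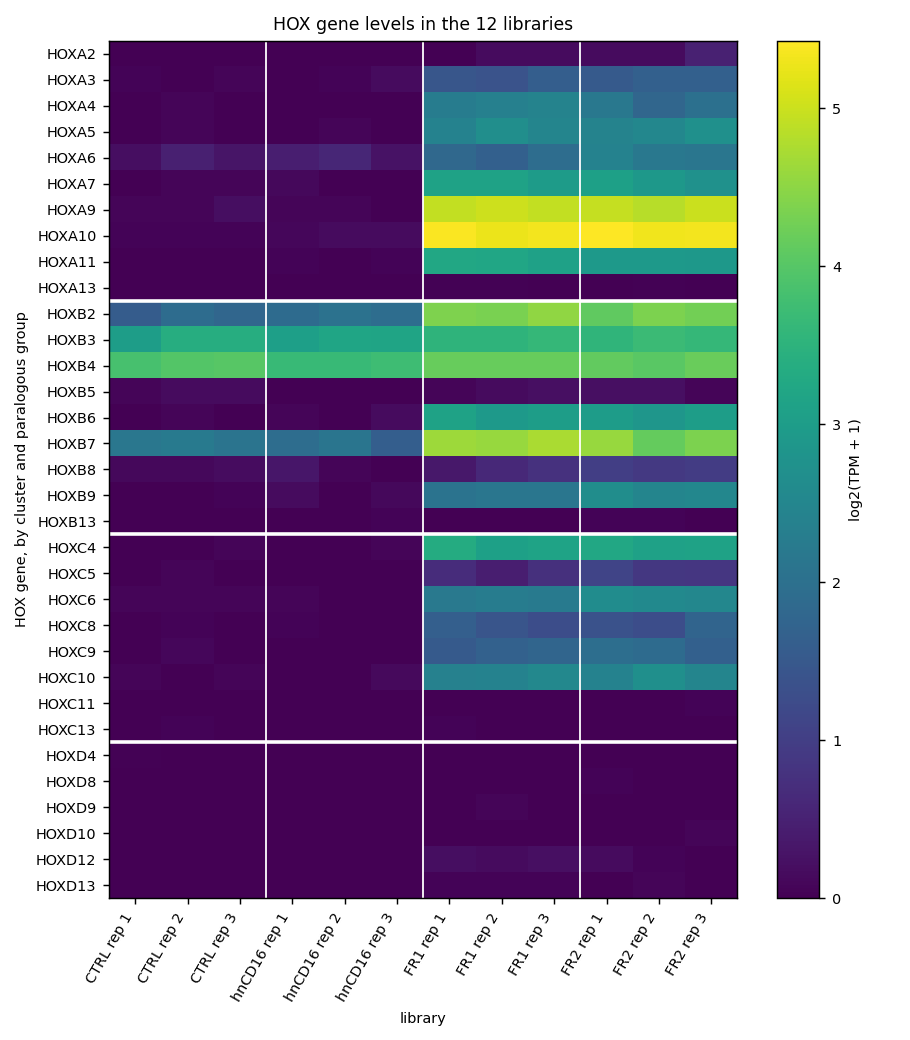
Level of 33 of the 34 HOX genes (one per line, ordered by cluster and paralogous group) in each of the 12 libraries, as log2(TPM + 1) on the color scale. White lines separate clusters and groups. In CTRL and hnCD16 the 4 genes HOXB2, HOXB3, HOXB4 and HOXB7 are bright, and in FR1 and FR2 19 of the genes shown are, from HOXA, HOXB and HOXC.

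The share of each cluster in the summed HOX level changed with it. HOXB made up 97.8% ± 0.706 of it in CTRL and 97.3% ± 0.194 in hnCD16, against 40.7% ± 1.08 in FR1 and 38.9% ± 0.396 in FR2. HOXA made up 1.59% and 2.38% in CTRL and hnCD16, and 49.0% ± 0.998 and 49.6% ± 0.442 in FR1 and FR2. HOXC reached 10.1% ± 0.302 in FR1 and 11.5% ± 0.441 in FR2, and HOXD stayed under 1 TPM in sum in every library. In TPM, the HOXB sum itself was 29.2 ± 2.75 in CTRL and 25.6 ± 0.638 in hnCD16, against 83.6 ± 3.498 in FR1 and 78.3 ± 2.41 in FR2, so HOXB fell as a share although its level was higher.

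Differences between groups were tested with edgeR's quasi-likelihood test on the deposited expected counts, and a gene was called when it changed by 1 or more on the log2 scale, in either direction, with an adjusted p no higher than 0.05. Of the 34 members, 22 had enough counts to be tested. Between FR1 and hnCD16, 20 of the 34 were called higher and 0 lower, where 38.3% of the 13657 genes tested were called, 18.7% higher and 19.6% lower. Between FR2 and hnCD16 the members' counts were again 20 and 0, beside 39.5% of all genes called, 19.6% higher and 19.8% lower. Against CTRL they were 20 and 0 for FR1 (38% of all genes called, 18.3% higher and 19.8% lower) and 20 and 0 for FR2 (38.2%, 18.7% and 19.6%). HOXB3 and HOXB4 were tested and not called in these 4 comparisons, which share their control and receptor libraries and so are not independent. A gene such as HOXA9, which passed the filter on counts only through FR1 and FR2, had to differ. The counts of members called, and the overlap and median that follow, thus describe the members and do not add evidence. The same holds for the adjusted p-values given below for HOXA3, HOXA6 and HOXA10, which passed the filter in the same way. For 22 of the 22 tested members, every FR1 and FR2 library was above every CTRL and hnCD16 library in CPM, as held for 31.4% of all genes tested, while 33% had every FR1 and FR2 library below. The median log2 fold change of the 22 was 6.87 in FR1 over hnCD16, or 6.05 with the 4 genes at 0 counts in hnCD16 set to their lower bound, and the median of all genes was -0.01.

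In the HOXA cluster (chromosome 7, 27092993 to 27200091 on GRCh38, GENCODE v44), 9 of 11 genes were at or near 0 in CTRL and hnCD16 and on in FR1 and FR2. The HOXA genes of the middle and the posterior side held the highest levels. HOXA10, which is needed for uterine development and acts in myeloid progenitors, had the highest level of any HOX gene in FR1 and FR2. It stood at 41.1, 37.6 and 39.4 TPM in FR1, at 42.1, 38.7 and 39.6 TPM in FR2, and between 0.04 and 0.12 TPM in the CTRL and hnCD16 libraries. These 6 latter libraries held 1 to 3 counts of HOXA10, against 966 to 1092 in the others, without overlap. Its log2 fold change was 8.60 ± 0.128 (SE) in FR1 over hnCD16 (adjusted p = 1.40e-19, edgeR) and 10.01 ± 0.144 in FR2 over CTRL (adjusted p = 9.47e-20).

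HOXA9, a regulator of haematopoietic stem cells that is overexpressed in many acute myeloid leukaemias, came second. Its levels were 29.6, 31.4 and 29.5 TPM in FR1 and 30.1, 27.8 and 30.8 TPM in FR2, against 0.15 TPM or less in each CTRL and hnCD16 library. HOXA9 thus had 592 to 653 counts per library in FR1 and FR2 and 0 to 3 elsewhere. Over the group sums of 1883 and 2 counts, the CPM ratio of FR1 to hnCD16 was 1007, with a 95% exact counting interval of 278 to 8322. HOXA9 and HOXA10 did not overlap in level in any FR1 or FR2 library, with HOXA10 above in all 6.

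HOXA11, which patterns the forelimb and kidney, followed within the cluster. It stood at 8.55, 8.21 and 7.63 TPM in FR1 and at 6.56, 6.57 and 6.45 TPM in FR2, with 0 counts in all CTRL libraries and 0 or 1 in hnCD16. FR1 was at least 252-fold and FR2 at least 201-fold above CTRL, taking a floor of 3 counts over the group. HOXA7 stood at 7.72, 7.74 and 6.89 TPM in FR1 and 7.52, 6.39 and 5.68 TPM in FR2, and at 0.09 TPM or less in CTRL and hnCD16. The FR1 and FR2 values of HOXA7 overlapped, those of HOXA11 did not.

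The anterior HOXA genes were lower but still apart from CTRL and hnCD16. HOXA5, which acts in lung development, was at 4.33, 5.44 and 4.51 TPM in FR1 and 4.38, 4.72 and 5.57 TPM in FR2, with at most 1 count in any CTRL or hnCD16 library. HOXA4 was at 3.87, 4.14 and 4.35 TPM in FR1 and 3.52, 2.48 and 3.02 TPM in FR2, and at 0 counts in all hnCD16 libraries, so FR1 was at least 74.5-fold above hnCD16. HOXA4 was lower in each FR2 library than in each FR1 library. HOXA3, needed for the thymus and parathyroid, was at 1.75, 1.62 and 2.1 TPM in FR1, at 1.90, 2.15 and 2.15 TPM in FR2 and at 0.12 TPM or less elsewhere. For HOXA3 the FR1 and FR2 values overlapped, and its log2 fold change of FR1 over hnCD16 was 5.43 ± 0.409 (SE, adjusted p = 1.02e-09, edgeR).

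HOXA6 was the HOXA gene with the most counts outside FR1 and FR2. It held 0.15, 0.40 and 0.23 TPM in CTRL, 0.38, 0.50 and 0.21 TPM in hnCD16, 2.54, 2.16 and 2.84 TPM in FR1 and 4.29, 3.52 and 3.39 TPM in FR2. The HOXA6 counts were not whole in 7 libraries, so RSEM divided some of its reads with another gene. Its log2 fold change of FR1 over hnCD16, 2.79 ± 0.346 (SE, adjusted p = 8.41e-07, edgeR), was the smallest of the 9 HOXA genes. Both remaining HOXA genes were too low to be tested. HOXA2, a gene of the hindbrain and the second pharyngeal arch, had 0 counts in CTRL and hnCD16, 0 to 2 counts in FR1 and 2 to 7 counts in FR2, although it lies next to HOXA3. HOXA13, which patterns hands, feet and the genital tract, had 0 or 1 count in every library, next to HOXA11.

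**Figure D2:**
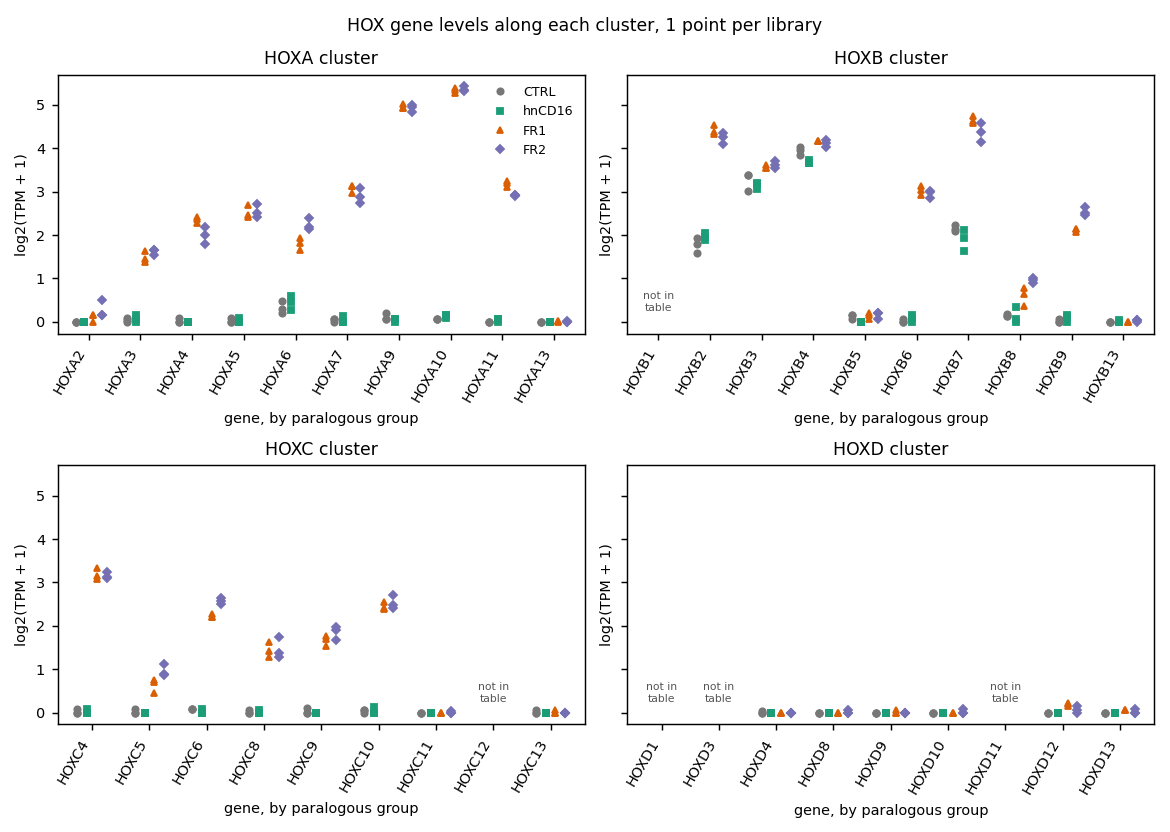
Level of 33 HOX genes as log2(TPM + 1) (y axis) by paralogous group (x axis) in the 4 clusters, with 1 point per library and a color and shape per group; genes marked as not in table were not analysed here. HOXA10 and HOXA9 stand highest in FR1 and FR2, HOXA2, HOXA13 and HOXB5 lie near 0 beside genes that are on, and all HOXD points lie near 0.

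The HOXB cluster (chromosome 17, 48528526 to 48728750) was the only one of the 4 with genes at 1 TPM or more in the CTRL and hnCD16 libraries. HOXB4, which promotes self-renewal when raised in haematopoietic stem cells, had the highest level of any HOX gene in CTRL and hnCD16. It stood at 13.4, 14.7 and 15.3 TPM in CTRL, 11.7, 11.6 and 12.3 TPM in hnCD16, 17.1, 17.02 and 16.9 TPM in FR1 and 16.5, 15.4 and 17.4 TPM in FR2. The lowest FR library of HOXB4 was thus just above the highest CTRL library. Its log2 fold change was 0.59 ± 0.0669 in FR1 over hnCD16 (SE, adjusted p = 2.80e-07, edgeR) and 0.40 ± 0.0657 in FR2 over CTRL (adjusted p = 2.69e-05), under the fold threshold.

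HOXB3, which regulates haematopoietic progenitors together with HOXB4, behaved likewise. Its levels were 7.12, 9.48 and 9.49 TPM in CTRL, 7.32, 8.12 and 8.0 TPM in hnCD16, 10.6, 10.6 and 11.2 TPM in FR1 and 10.7, 12.04 and 11.3 TPM in FR2. The log2 fold changes of HOXB3 were 0.55 ± 0.0736 in FR1 over hnCD16 (SE, adjusted p = 2.30e-06, edgeR) and 0.45 ± 0.0721 in FR2 over CTRL (adjusted p = 1.77e-05). The lowest FR library was above the highest of the others for HOXB3 as well. All 22 tested members had an adjusted p no higher than 0.05 at any fold in the comparisons of FR1 and FR2 with hnCD16, as did 79.1% and 80.1% of all genes tested, and in those with CTRL, as did 79.9% and 80.2%. With only hnCD16 and CTRL in the fit, 4 HOX genes had enough counts to be tested. Most of the 22 thus passed the filter through FR1 and FR2, so their number adds no evidence.

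HOXB2 and HOXB7 were on in every library and several-fold higher in FR1 and FR2. HOXB2, a hindbrain gene, was at 1.98, 2.80 and 2.44 TPM in CTRL, 2.72, 3.13 and 2.86 TPM in hnCD16, 19.9, 19.2 and 22.1 TPM in FR1 and 16.2, 19.4 and 18.2 TPM in FR2. HOXB7 was at 3.42, 3.67 and 3.25 TPM in CTRL, 2.82, 3.33 and 2.08 TPM in hnCD16, 23.9, 23.1 and 25.8 TPM in FR1 and 23.0, 16.8 and 19.6 TPM in FR2. For neither gene did the blocks overlap. In FR1 over hnCD16 the log2 fold change was 2.80 ± 0.125 for HOXB2 (SE, adjusted p = 5.89e-13, edgeR) and 3.21 ± 0.146 for HOXB7 (adjusted p = 7.18e-13). These rested on 118 and 114 counts over the hnCD16 libraries, the only called HOX genes with more than 11 counts there.

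**Figure D3:**
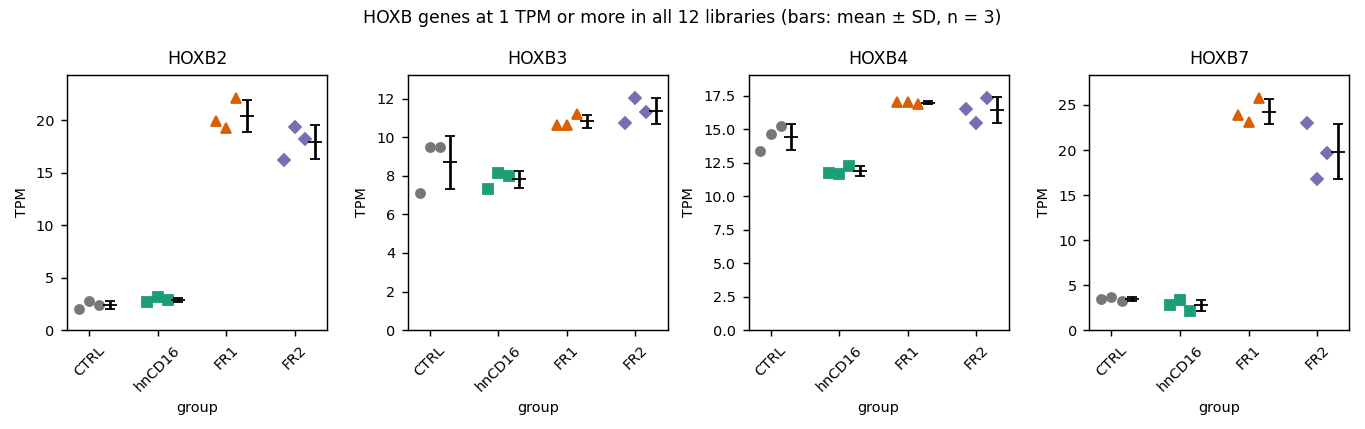
TPM (y axis, from 0) of the 4 HOXB genes that were at 1 TPM or more in all 12 libraries, with 1 point per library and bars for the mean ± SD of 3 libraries. HOXB3 and HOXB4 differ little between groups, while HOXB2 and HOXB7 stand near 2 to 4 TPM in CTRL and hnCD16 and at 16.2 TPM or more in FR1 and FR2.

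The other HOXB genes divided into those that were on in FR1 and FR2 and those that were low throughout. HOXB6 was at 7.75, 6.55 and 7.16 TPM in FR1, 7.02, 6.27 and 7.12 TPM in FR2 and at 0.12 TPM or less in CTRL and hnCD16. HOXB9, a gene of the thoracic skeleton, was at 3.18, 3.40 and 3.38 TPM in FR1, at 5.30, 4.51 and 4.71 TPM in FR2 and at 0.11 TPM or less in CTRL and hnCD16. HOXB8, which maintains immature myeloid progenitors when overexpressed, reached 0.28, 0.55 and 0.71 TPM in FR1 and 1.0, 0.86 and 0.96 TPM in FR2. The first FR1 library of HOXB8 was barely above 1 hnCD16 library at 0.26 TPM. HOXB5, which lies between HOXB4 and HOXB6, had 0 to 3 counts in every library of all 4 groups. HOXB13, a gene of the prostate and tail region, had 0 or 1 count throughout. HOXB6 and HOXB7 had fractional counts in 3 libraries each, and their summed count was whole within 0.05 in all 12, so a few reads were divided between them.

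The HOXC cluster (chromosome 12, 53938831 to 54056030) had at most 1 count in every CTRL library and at most 2 in every hnCD16 library for each of its 8 genes. HOXC4, which in B cells acts on the gene of the deaminase AID, was the highest, at 9.12, 7.46 and 7.86 TPM in FR1 and 8.5, 7.66 and 7.76 TPM in FR2. HOXC10, a lumbar gene, was at 4.24, 4.32 and 4.81 TPM in FR1 and 4.33, 5.54 and 4.54 TPM in FR2. HOXC6 was at 3.6, 3.87 and 3.62 TPM in FR1 and 5.21, 4.96 and 4.67 TPM in FR2. All 3 were at 0.10 TPM or less in the other 6 libraries. HOXC9, which organises thoracic motor neurons, was at 1.89, 2.24 and 2.40 TPM in FR1 and 2.90, 2.72 and 2.18 TPM in FR2, with 0 counts in hnCD16, so that FR1 was at least 34.2-fold higher. HOXC8, a gene of brachial motor neurons, was at 2.11, 1.68 and 1.44 TPM in FR1 and 1.58, 1.44 and 2.34 TPM in FR2.

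HOXC5 was the weakest HOXC gene to be tested, with 6 to 11 counts in FR1, 13 to 19 in FR2, 0 in hnCD16 and 0 or 1 in CTRL. FR1 was at least 9.63-fold above hnCD16 for HOXC5. HOXC5 and HOXC4 overlap in the annotation and share a promoter entry, and counting by strand was not stated, so reads from antisense transcripts in the clusters and from overlapping HOX genes cannot be told apart. HOXC11 and HOXC13, the posterior members, had 0 or 1 count in every library, and HOXC13 is known for its part in hair and nails.

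None of the 6 HOXD genes (chromosome 2, 176092721 to 176190907) was tested. HOXD4, HOXD8, HOXD9 and HOXD10 had a single count in 1 of the 12 libraries each. HOXD13, mutated in synpolydactyly, had 1 count in each FR1 library, 2 in 1 FR2 library and 0 in the rest. HOXD12 had 4, 3 and 4 counts in FR1, 3, 1 and 0 in FR2 and 0 in CTRL and hnCD16. The CPM ratio of FR1 to FR2 for HOXD12, from 11 and 4 counts, was 2.80 with a 95% exact counting interval of 0.830 to 12.1. A floor of 3 counts was 0.160 to 0.169 CPM in these libraries, and intervals and floors cover counting error only.

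Across clusters, levels in FR1 ran from HOXA10 (39.4 ± 1.78 TPM) over HOXA9 (30.2 ± 1.07), HOXB7 (24.3 ± 1.39), HOXB2 (20.4 ± 1.53) and HOXB4 (16.99 ± 0.103) to HOXB3 (10.8 ± 0.326) and HOXC4 (8.15 ± 0.866; SD, n = 3). The libraries of each of these genes lay apart from those of the next, except that HOXC4 and HOXA11 (8.13 ± 0.465) overlapped. In FR2 the first 7 genes had the same order, with HOXA10 at 40.1 ± 1.77 TPM and HOXA9 at 29.5 ± 1.57, but HOXB7 (19.8 ± 3.10), HOXB2 (17.9 ± 1.62) and HOXB4 (16.4 ± 0.963) overlapped. In CTRL the order was HOXB4 (14.5 ± 0.960), HOXB3 (8.70 ± 1.37), HOXB7 (3.45 ± 0.211) and HOXB2 (2.41 ± 0.411), all apart, and in hnCD16 HOXB4 (11.9 ± 0.360) and HOXB3 (7.81 ± 0.431) stood above HOXB2 (2.90 ± 0.208) and HOXB7 (2.74 ± 0.629), which overlapped.

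Transcripts were compared for genes with several. Of the 34 genes, 25 had 1 transcript in the deposited transcript table and 9 had several, and all 408 gene values equalled the sum over transcripts within 0.05 counts. HOXA3, with 9 transcripts, took 92.1% of its FR1 level and 91.8% of its FR2 level from NM_001384336. HOXC4 took 88.8% and 88.5% from NM_153633, and HOXB6 took 87.6% and 93.1% from NM_018952. HOXB2 took most of its level from XM_005257275 in all groups, on average 75.0% in CTRL and 67.2% in hnCD16, and 81.7% and 79.7% in FR1 and FR2. HOXB3, with 13 transcripts, had no dominant one. Its leading transcript on average was NM_002146 in CTRL (32.5%) and hnCD16 (29.8%), XM_011524710 in FR1 (25.8%) and NM_001330323 in FR2 (28.4%), and the shares of the last ranged from 13.5% to 40.0% within FR2.

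Between hnCD16 and CTRL, 0 of the 34 HOX genes were called and 0 reached an adjusted p no higher than 0.05 in edgeR, where 0.527% of all genes tested were called (0.212% higher, 0.315% lower) and 43% reached that p at any fold. DESeq2 and limma also called 0. HOXB2 alone had an unadjusted p under 0.05, with a log2 fold change of 0.46 ± 0.184 (SE, adjusted p = 0.0552, edgeR). HOXB4, with a log2 fold change of -0.13 ± 0.0684 (adjusted p = 0.135), and HOXB3, at -0.13 ± 0.0747 (adjusted p = 0.188), were below CTRL by less than the test resolved. For the genes at 0 to 3 counts in both groups, a difference was not detectable at this depth.

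Between FR1 and FR2, whose constructs differ by the 2B4 domain, 0 of the 34 HOX genes were called by edgeR, where 1.93% of all genes tested were (0.439% higher and 1.49% lower in FR1). DESeq2 and limma also called 0. A smaller change with an adjusted p no higher than 0.05 was seen for 5 members, and 36.2% of all genes tested reached that p at any fold. In all, 8 members had an unadjusted p under 0.05. HOXB9 was lower in FR1 than in FR2, its log2 fold change being -0.53 ± 0.148 (SE, adjusted p = 0.00974, edgeR), and so was HOXB8 at -0.95 ± 0.332 (adjusted p = 0.0344). HOXB8 passed the fold threshold, at -1.30, without FR1 replicate 3. HOXA11 was higher in FR1 by 0.33 ± 0.101 (adjusted p = 0.0188) and HOXB7 by 0.30 ± 0.106 (adjusted p = 0.0329) on the log2 scale. The members with the highest levels did not pass, HOXA10 differing by -0.02 ± 0.0519 and HOXA9 by 0.04 ± 0.0672, and the counting intervals of their CPM ratios ran from 0.941 to 1.04 and from 0.965 to 1.098.

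**Figure D4:**
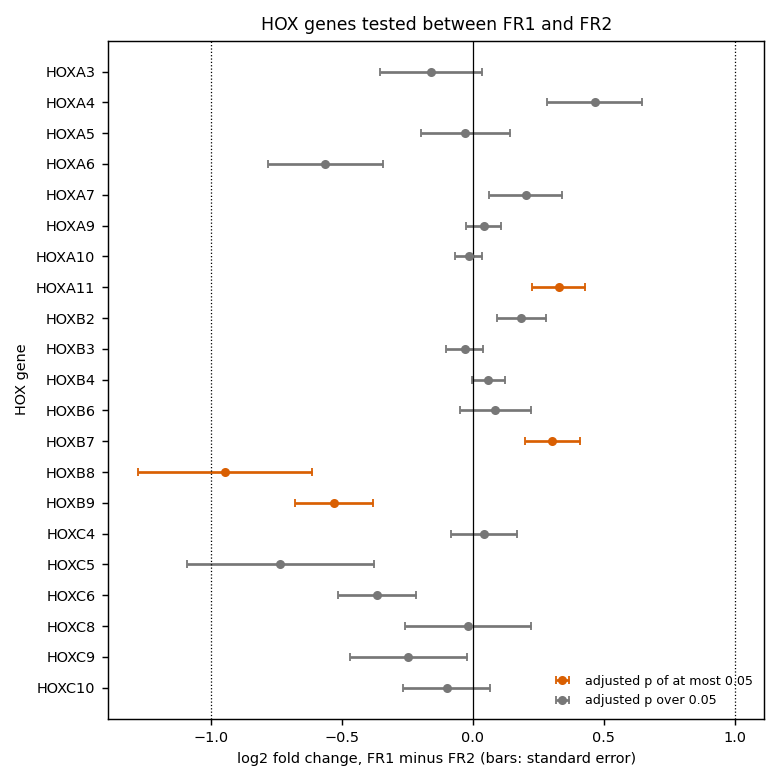
Log2 fold change of FR1 minus FR2 (x axis) with its standard error for 21 of the 22 HOX genes tested by edgeR (y axis), where dotted lines mark the fold threshold and color marks an adjusted p of at most 0.05. HOXA11 and HOXB7 lie to the right and HOXB8 and HOXB9 to the left, all 4 within the threshold.

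HOX proteins bind DNA together with TALE homeodomain proteins of the PBX, MEIS and PKNOX families. Of 9 such genes listed, 8 were in the table and 7 were tested. In each of the 4 comparisons of FR1 or FR2 with hnCD16 or CTRL, 2 were called higher, among them MEIS1, and 2 lower, PBX3 and PBX4. Over all genes tested, 38% to 39.5% were called in these comparisons. MEIS1, the partner of HOXA9 in leukaemia, was at 2.78, 2.95 and 2.34 CPM in FR1, 2.52, 2.55 and 1.89 CPM in FR2, and at 0.398 CPM or less in CTRL and hnCD16. Its log2 fold change of FR1 over hnCD16 was 4.35 ± 0.371 (SE, adjusted p = 5.68e-09, edgeR). MEIS1 passed the filter on counts only through FR1 and FR2, so this adjusted p adds no evidence.

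PBX3 fell from 17.7 to 19.7 CPM in hnCD16 to 8.16 to 9.77 CPM in FR1, by 1.09 ± 0.0909 on the log2 scale (adjusted p = 4.22e-09, edgeR). PBX4 fell by 2.16 ± 0.219 (adjusted p = 6.24e-08, edgeR). MEIS2 was at 12.7 to 14.1 CPM in hnCD16 and 8.04 to 8.97 CPM in FR1, without overlap, but its log2 fold change of -0.65 ± 0.0922 was under the threshold (adjusted p = 4.50e-06, edgeR). PBX2, the TALE gene with the most counts, had log2 fold changes of 0.27 against hnCD16 and -0.18 against CTRL in FR1, and PKNOX1 had -0.06 and -0.04. The median over the 7 tested genes was -0.06 in FR1 over hnCD16, beside -0.01 for all genes.

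**Figure D5:**
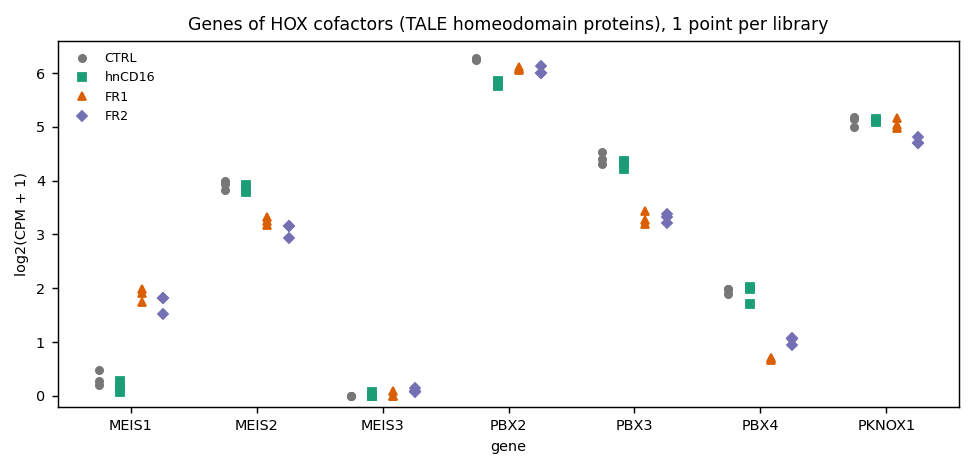
Level of 7 of the 8 TALE genes present as log2(CPM + 1) (y axis), with 1 point per library and a color and shape per group. They include MEIS3, which lay near 0 and was not tested, and so are not the same 7 genes that were tested. MEIS1 stands higher in FR1 and FR2, and PBX3 and PBX4 stand lower.

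Genes that act on the clusters were mixed in direction. Beside these lists, 38.3% of all genes tested were called between FR1 and hnCD16, and 38% to 39.5% over the 4 comparisons. Of 17 trithorax genes and MLL partners, all tested, 0 were called between FR1 and hnCD16 and 1 lower between FR2 and hnCD16. Against CTRL, 1 was called higher and 1 lower in FR1, and 1 higher and 3 lower in FR2. KMT2A, the MLL methyltransferase that maintains HOX expression, had log2 fold changes of 0.45 to 0.74 in the 4 comparisons. Of 11 genes of Polycomb repressive complex 2, 2 were called higher and 2 lower between FR1 and hnCD16. The higher ones were PHF1, at 1.47 ± 0.0815, and RBBP7, at 1.21 ± 0.0452, and the lower ones MTF2, at -1.47 ± 0.0556, and JARID2, at -1.44 ± 0.0598 (SE, all with adjusted p of 1.24e-11 or less, edgeR). EZH2, the catalytic subunit, had log2 fold changes of -0.18 to -0.07.

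Of 17 genes of Polycomb repressive complex 1, 2 were called higher and 4 lower between FR1 and hnCD16. Over all genes tested the share called was 38.3%. PHC1 stood at 37.1 to 39.4 CPM in hnCD16, at 47.5 to 49.9 CPM in CTRL and at 0.0579 CPM or less in every FR1 and FR2 library, without overlap. Its log2 fold change of FR1 over hnCD16 was -9.23 ± 0.169 (SE, adjusted p = 1.96e-18, edgeR). PCGF2 fell by 3.91 ± 0.543 (adjusted p = 3.32e-06) and RNF2, an E3 ligase of the complex, by 1.62 ± 0.0494 (adjusted p = 2.32e-15), while CBX6 rose by 1.75 ± 0.0592 (adjusted p = 9.89e-15) in the same edgeR comparison. PHC1 and PCGF2 passed the filter on counts only through CTRL and hnCD16, so their adjusted p-values against FR1 add no evidence. The median over the list was 0.07, beside -0.01 for all genes. PCGF2 was also the 1 gene of these lists called between hnCD16 and CTRL, at -1.03 ± 0.266 (adjusted p = 0.00475, edgeR), beside 0.527% of all genes tested. It was not called without CTRL replicate 2, hnCD16 replicate 1 or hnCD16 replicate 3, at -0.94, -0.91 and -0.98. Nor was it called by DESeq2, which gave -1.03 without an adjusted p, or by limma on log2(TPM + 1), at -0.74.

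Upstream regulators and structural proteins of the clusters were examined next, beside 38% to 39.5% of all genes called in the 4 comparisons. Of 8 CDX and retinoic acid receptor genes in the table, 4 were tested, and RARG was called higher and RXRA lower in all 4 comparisons. RARG, a retinoic acid receptor, was at 6.13 to 7.11 CPM in FR1, 8.69 to 10.8 CPM in FR2 and 0.218 CPM or less in CTRL and hnCD16. RXRA, the partner of such receptors, was at 7.30 to 9.79 CPM in CTRL and hnCD16 and at 0.116 CPM or less in FR1 and FR2. Of 8 CTCF and cohesin genes, NIPBL (1.48 ± 0.131) and SMC3 (1.16 ± 0.191) were called higher between FR1 and hnCD16 and none between FR2 and hnCD16. SMC3 ranged from 88.2 to 165 CPM within hnCD16, and it was not called in FR1 without hnCD16 replicate 1, at 0.996. Without hnCD16 replicate 3 both genes were called in FR2 over hnCD16, SMC3 at 1.097 and NIPBL at 1.04.

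Among 9 genes listed as targets of HOXA9 and MEIS1 and present in the table, 3 were called higher and 4 lower in each of the 4 comparisons. The share called over all genes tested was 38% to 39.5%. ID2, an inhibitor of E proteins that NK development requires, was at 233 to 250 CPM in FR1, 256 to 263 CPM in FR2 and 0.594 to 1.74 CPM in CTRL and hnCD16. PIM1, a serine kinase gene, was at 169 to 188 CPM in FR1 and FR2 and at 0.432 to 1.04 CPM in the other libraries. SOX4, a factor of early lymphoid cells, went the other way, from 126 to 166 CPM in CTRL and hnCD16 to 0.392 CPM or less in FR1 and FR2, and ERG went from 43.5 to 58.2 CPM to 0.173 CPM or less. The median over the 9 genes was a log2 fold change of -0.83 in FR1 over hnCD16, beside -0.01 for all genes.

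The nearest protein-coding genes outside each cluster were compared as well, 3 on each side, which lay 8.76 to 1027.76 kb away. Of 23 such genes in the table, 21 were tested. Between FR1 and hnCD16, 1 was called higher and 2 lower, with a median of 0.09, beside 38.3% of all genes called. In each of the other comparisons of FR1 or FR2 with hnCD16 or CTRL, 3 were called higher and 2 lower, beside 38% to 39.5% of all genes. TAX1BP1, which lies 539.24 kb beyond HOXA13, was higher by 1.05 ± 0.0883 (SE, adjusted p = 4.77e-09, edgeR), and was under the fold threshold without hnCD16 replicate 1, at 0.98, and with library size only, at 0.97. CALCOCO2 and ATP5MC1, 102.27 and 164.01 kb beyond HOXB13, were lower by 2.11 ± 0.0513 and 1.34 ± 0.0617 on the log2 scale. SKAP2, 97.75 kb outside the HOXA cluster, had mean levels of 0.20, 0.30, 0.52 and 0.68 CPM in CTRL, hnCD16, FR1 and FR2. Against 9 of 11 genes called inside HOXA, SKAP2 was called in 3 of the 4 comparisons. It was not called between FR1 and hnCD16, where its log2 fold change was 0.75. Its means were all under 1 CPM, so its calls rest on few counts.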

How the data were processed

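Per the study's methods, the authors cleaned reads with SOAPnuke, and HISAT2 2.1.0, RSEM 1.3.1 and the build GRCh38.p13 are named in the submitters' processing notes. The deposited expected counts, estimated by RSEM for every gene, are not normalized, and the authors' TPM values are these estimates scaled by gene length and library. How reads were counted by strand is not given in the sources used here, nor are HOX noncoding RNAs analysed here. Expected counts were rounded to whole numbers. Of 17555 genes with at least 1 count, 13657 passed filterByExpr and were tested in edgeR 4.0.16 (R 4.3.3) by its quasi-likelihood test, with TMM factors of 0.939 to 1.11 in 1 fit of the 4 groups, with Benjamini-Hochberg adjustment within each of 6 comparisons. Calls needed a change of 1 on the log2 scale and an adjusted p no higher than 0.05, the study's thresholds for DESeq2. CPM values are TMM-scaled. Standard errors were derived from the fold change and the F statistic. Bounds used a floor of 3 counts over a group's libraries, and ratios of counts have 95% exact intervals. The edgeR step was tested on simulated data. No pair of replicates agreed within sampling noise (chi-square per gene 2.06 to 12.3). Alternatives were DESeq2 1.42.0, limma 3.58.1 (log2 of TPM with a pseudocount of 1 or 0.1), RLE or library size in place of TMM, other filters, only the compared groups, leaving out each library, no fold threshold and the replicate number as a block. Members at 1 TPM or more on average in a group are given with every library, the rest by their counts, and of the other lists up to 4 genes called between FR1 and hnCD16 with the largest change and at least 1 CPM on average, with all TALE genes above that level. KMT2A, EZH2 and SKAP2 fall outside this rule and were chosen after their values were seen. The members and gene lists were chosen with earlier results of these data known. FPKM columns and the authors' averages were not used. The values of 2 genes are not reported here, although counts and sums over lists include them.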

Additional observations from a re-analysis of the deposited data

How the results depend on the processing

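The 20 HOX genes called higher in each comparison of FR1 or FR2 with hnCD16 or CTRL came to 18 to 22 under the other tests, normalizations and samples, and to 20 without any 1 library. The exception was a minimum of 10 counts in every library, which left 4 HOX genes to test and called 2 in each of these comparisons, because members near 0 in CTRL and hnCD16 could not pass it. With the replicate block, 20 were called in each, and 0 in hnCD16 over CTRL and in FR1 over FR2. Deviations of same-numbered replicates had mean correlations of -0.03 to 0.09 in the comparisons with FR1 or FR2. Between hnCD16 and CTRL the mean was 0.25 (0.02 to 0.40), against -0.13 for other numbers, so some of these libraries deviated together. In no comparison was every pair above 0.1, and the main test did not pair the samples. Between FR1 and FR2 the count was 0, and 5 with no fold threshold, 1 with library size only (HOXB8, at -1.01), and 0 to 1 without 1 library. Between hnCD16 and CTRL it was 0 without any 1 library. HOXB8, HOXC5 and, among other listed genes, MEIS1 were under the fold threshold in limma on log2(TPM + 1), which compresses low levels. So was PCGF2 (-0.93) in FR1 over hnCD16. In the same comparison PBX3 (-0.99) and TAX1BP1 (0.97) were under it in this limma setting as well, from -1.09 and 1.05 in the main test. HOXB3 and HOXB4 were above hnCD16 and CTRL under each alternative, by 0.17 to 0.62 on the log2 scale. With library size only, the median of all genes went from -0.03 to -0.22 in FR1 against CTRL. The HOXA share in CPM was 52.3% and 52.0% in FR1 and FR2, and 0.888% and 1.34% in CTRL and hnCD16, lower than in TPM by over 1.5 times in CTRL and hnCD16. Depth limits the genes at 3 counts or fewer, for which a difference was not detectable.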
